A study of Mus musculus with 12 samples.

Results

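Nanog, Prdm14, Tfcp2l1, Klf2, Klf4 and Klf5 are transcription factors of the naive pluripotent state of mouse embryonic stem (ES) cells. They were followed over 4 days of measurement after the loss of Esrrb, an orphan nuclear receptor of the same network. The 6 genes, of 19938 measured, were chosen by their own values on these arrays, as factors whose signal falls after the loss and partly recovers by day 5. Their levels and day differences are therefore given as a description, without a test. Each has 1 probe set that carries its symbol alone, and 0 of them has a probe set shared with another gene. On the arrays 5 of the 6 show the shape they were chosen for. Klf2 goes against it, since its signal was higher at day 1 than at day 0, lower at day 3, and not higher again at day 5.

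The cells were the AINV15 Esrrb rescue clone (Esrrb_R), a single clone derived from ES cells that express rtTA, the activator that switches on a promoter when doxycycline (Dox) is present. A short hairpin RNA depletes the endogenous Esrrb, and a GFP-tagged Esrrb that the hairpin cannot target is made as long as Dox is given. Day 0 cultures had 1 µg/ml Dox, and days 1, 3 and 5 count the days without it, with 3 biological replicates and thus 3 arrays a day. All groups carry the hairpin, the transgene and rtTA and were grown in serum with Lif on gelatin, although the line is otherwise kept on embryonic fibroblasts. No culture kept on Dox beyond day 0 and no cells without the hairpin are among these 12 arrays, so the loss of Esrrb, the removal of Dox and time in culture cannot be told apart.

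Naive pluripotency is held by a web of transcription factors that bind each other's genes, together with the general factors Oct4 (the product of Pou5f1) and Sox2. Lif acts through the kinase Jak1 and the factor Stat3 and feeds mainly into Klf4 and Tfcp2l1, while Wnt signalling relieves repression by Tcf7l1 and feeds into Esrrb, Klf2 and Tfcp2l1. Esrrb binds DNA at extended versions of the sequence AGGTCA, and Klf proteins bind GC-rich and CACCC sequences.

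Promoter sequences of RefSeq (build GRCm38.p6) were found for 4 of the 6 genes, Nanog, Tfcp2l1, Klf2 and Klf4. They are printed as the 250 bases before the annotated start, 5′ to 3′ on the strand of the gene, because the 4 genes differ in both timing and size of their change and the reader can set the sequences beside the values. In Nanog (plus strand, chr6:122707239-122707488) the capitals mark TGACCT, which is AGGTCA on the opposite strand, and a Sox-Oct composite. In Tfcp2l1 (plus strand, chr1:118627695-118627944) they mark a TATA box (TATAAA). In Klf2 (plus strand, chr8:72318812-72319061) and Klf4 (minus strand, chr4:55532476-55532725) they mark GC boxes (GGGCGG on either strand, 2 of which overlap in Klf4).
Nanog: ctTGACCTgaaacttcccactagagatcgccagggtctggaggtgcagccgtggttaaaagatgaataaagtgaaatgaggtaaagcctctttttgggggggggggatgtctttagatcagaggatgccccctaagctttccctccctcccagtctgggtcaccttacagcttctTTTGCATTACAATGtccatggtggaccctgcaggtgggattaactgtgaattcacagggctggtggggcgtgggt
Tfcp2l1: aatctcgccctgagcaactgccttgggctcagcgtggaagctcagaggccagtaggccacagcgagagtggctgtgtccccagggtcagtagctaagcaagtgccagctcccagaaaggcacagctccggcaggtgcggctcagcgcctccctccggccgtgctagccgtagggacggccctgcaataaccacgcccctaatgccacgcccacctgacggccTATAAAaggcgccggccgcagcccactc
Klf2: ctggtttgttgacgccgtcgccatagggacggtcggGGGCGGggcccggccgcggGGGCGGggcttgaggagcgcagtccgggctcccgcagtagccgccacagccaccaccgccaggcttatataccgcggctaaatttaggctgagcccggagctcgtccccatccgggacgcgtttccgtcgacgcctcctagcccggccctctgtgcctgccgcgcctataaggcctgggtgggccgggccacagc
Klf4: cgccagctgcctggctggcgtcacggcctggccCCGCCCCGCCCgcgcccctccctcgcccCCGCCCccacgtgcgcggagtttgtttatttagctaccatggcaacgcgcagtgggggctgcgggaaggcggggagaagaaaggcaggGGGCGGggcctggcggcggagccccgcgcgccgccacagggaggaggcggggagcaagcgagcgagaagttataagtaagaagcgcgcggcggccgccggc

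The Sox-Oct composite was searched as CATTGT, any base, and ATGCAAA, on both strands as all sequences here. It was present in the Nanog window, with its first base 75 bases before the start. Nanog was the 1 gene with such a match among the 32851 promoter windows of 27025 genes, which hold it in 0.00609% of cases. Apart from the free base, the string searched is the Nanog site itself, read on the opposite strand. A match in Nanog was therefore fixed by the choice of string. Looser forms of the composite, and sequence outside the windows, were not searched. Whether other genes hold a Sox-Oct element was thus not tested. The second annotated start of Nanog holds the same composite 151 bases before it. The Oct part alone was present in 4.12% and the Sox part alone in 10.7% of windows. AGGTCA was present in 14.0% of all windows and, among these 4 genes, in Nanog, 248 bases before the start. The longer Esrrb elements AAGGTCA (4.08% of windows) and TCAAGGTCA (0.387%), both of which contain AGGTCA, had no match in the 4 windows. GGGCGG, present in 32.7% of windows, matched at 2 positions in Klf2 and 4 in Klf4. TATAAA, present in 12.4%, matched in Tfcp2l1 28 bases before the start. CCACACCC (3.20% of windows), the Stat sequence TTCNNNGAA (7.02%) and the Prdm14 sequence GGTCTCTAA (0.240%) had no match in these windows. GC content was 52.0% in Nanog, 65.2% in Tfcp2l1, 71.2% in Klf2 and 74.0% in Klf4, against a median of 52.4% over all windows. These are matches of letters, and binding was not measured on these arrays.

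Values are log2 signals after Robust Multichip Average (RMA) normalization, so that a difference of 1 is a doubling. Esrrb, the targeted gene, read 11.59, 11.54 and 11.63 on the day 0 arrays, 9.09, 9.15 and 9.16 at day 1, 8.20, 8.07 and 8.34 at day 3, and 8.15, 8.28 and 8.13 at day 5. Against day 0 it differed by -2.46 ± 0.07 (SE of the fit) at day 1 and by -3.39 ± 0.07 at day 3, and it showed no recovery, with a difference of -0.01 ± 0.07 from day 3 to day 5. How much of this signal comes from the transgene is not known from these arrays. Markers of ES cells were bright at day 0, among them Pou5f1 (12.44), Sox2 (12.28), Utf1 (12.22), Tdgf1 (12.97), Sall4 (11.29) and Zfp42 (11.24), as log2 means of 3 arrays. Some primitive endoderm markers were bright as well. The day 0 means of the 14 measured ran from 5.58 (Afp) to 12.72 (Lamb1), with Gata4 at 10.62 and Gata6 at 10.83. In these bulk samples, fewer cells that express a gene and less RNA in each cell cannot be told apart.

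**Figure D1:**
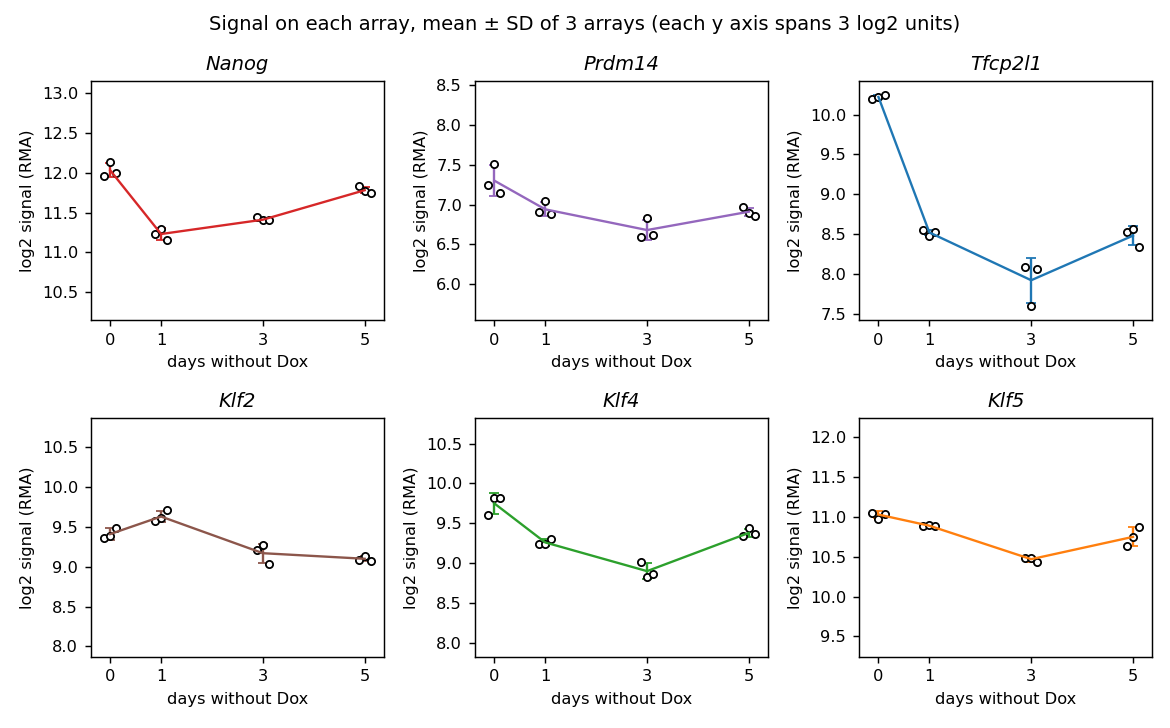
Log2 signal of the 6 genes on each array (circles, 3 a day) against days without Dox, with the mean ± SD of the 3 arrays as a line. Nanog is lowest at day 1 (mean 11.23), Klf4, Klf5, Tfcp2l1 and Prdm14 are lowest at day 3, and Klf2 is highest at day 1 (9.63) and lowest at day 5 (9.10).

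Nanog, a homeodomain factor that sustains self-renewal, had the earliest low point. Its log2 signal was 11.96, 12.14 and 11.99 on the day 0 arrays, 11.23, 11.29 and 11.16 at day 1, 11.44, 11.40 and 11.40 at day 3, and 11.83, 11.77 and 11.75 at day 5. All 3 arrays of day 1 lay below all of day 3, all of day 3 below all of day 5, and all of day 5 below all of day 0. The fall to day 1 was 0.80 ± 0.06 on the log2 scale (SE of the fit), a 1.74-fold lower signal. From day 1 to day 3 Nanog was higher by 0.18 ± 0.06, and from day 3 to day 5 by 0.37 ± 0.06. By day 5 it stood 0.25 ± 0.06 under day 0, at 84.4% of the day 0 signal on the linear scale. Of the fall, 69.4% ± 5.8 (SE) was recovered, the largest share among the 6 genes.

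Prdm14, a PR domain zinc finger factor that represses Fgf receptor and DNA methyltransferase genes in naive cells, had the lowest rank on the arrays of the 6 genes. It read 7.25, 7.51 and 7.14 at day 0, 6.91, 7.04 and 6.88 at day 1, 6.59, 6.83 and 6.62 at day 3, and 6.97, 6.89 and 6.86 at day 5. The arrays of day 1 and day 5 overlapped, while those of day 3 were lower than both and those of day 0 higher. Its signal lay above 42.0 to 59.0% of all probe sets on an array, which leaves little room above background. The fall to day 3 was 0.62 ± 0.09, of which 57.4% ± 13.2 was reached at day 1. Day 5 was 0.23 ± 0.09 above day 3, a recovered share of 36.5% ± 11.3, and the gap between the lowest array of day 5 and the highest of day 3 was 0.03.

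Tfcp2l1, a CP2 family factor downstream of Lif and Wnt input, had the deepest fall of the 6 genes. The day 0 arrays read 10.20, 10.22 and 10.24, those of day 1 8.55, 8.48 and 8.52, those of day 3 8.09, 7.60 and 8.06, and those of day 5 8.53, 8.56 and 8.34. The lowest day 0 array lay 1.65 above the highest of day 1, all later arrays were far below day 0, and the arrays of day 1 and day 5 overlapped. At day 3 the signal was 2.30 ± 0.11 lower than at day 0, or 4.94-fold, with 73.8% ± 5.2 of the fall reached at day 1. The rebound from day 3 to day 5, 0.56 ± 0.11, was as large on the log2 scale as that of Nanog from its low point (0.56 ± 0.06), yet it was 24.4% ± 6.0 of a much deeper fall. On the linear scale the recovered share was 12.1%, and day 5 stood at 29.9% of day 0. The array at 7.60 set most of the spread of day 3 (SD 0.28), and without 1 array in turn the recovered share ran from 18.8 to 27.3%.

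The 3 Klf genes encode zinc finger factors with much shared function in self-renewal, and they differed from each other in direction and in timing. Klf4, the one most tied to Lif, read 9.60, 9.82 and 9.82 at day 0, 9.24, 9.24 and 9.30 at day 1, 9.01, 8.83 and 8.87 at day 3, and 9.34, 9.44 and 9.37 at day 5. No day overlapped another, and day 5 lay above day 1 with a gap of 0.04 between arrays. The fall to day 3 was 0.85 ± 0.07 (1.80-fold), 57.7% ± 5.8 of it by day 1. Day 5 was 0.48 ± 0.07 above day 3, which recovered 56.5% ± 6.6 of the fall and left Klf4 at 77.5% of its day 0 signal.

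Klf5, which also acts in the trophectoderm of the early embryo, had the latest fall of the 5 genes that partly recovered. It read 11.05, 10.98 and 11.04 at day 0 and 10.89, 10.90 and 10.89 at day 1, a difference of -0.14 ± 0.06 that was 24.5% ± 3.0 of its later fall. At day 3 it read 10.49, 10.48 and 10.44, and at day 5 10.63, 10.75 and 10.87. Day 3 was 0.55 ± 0.06 below day 0, and day 5 was 0.28 ± 0.06 above day 3. The recovered share was 51.0% ± 12.8, and its error was wide because the day 5 arrays were spread (SD 0.12). Unlike Nanog and Klf4, Klf5 stayed lower at day 5 than at day 1, by 0.14 ± 0.06 and with a gap of 0.01 between arrays.

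Klf2, which maintains naive cells when Erk signalling is blocked, read 9.36, 9.38 and 9.48 at day 0 and 9.57, 9.61 and 9.71 at day 1. All day 1 arrays were thus above all day 0 arrays, by 0.22 ± 0.07 in the mean. At day 3 it read 9.21, 9.27 and 9.03, and at day 5 9.09, 9.13 and 9.07, and these days overlapped. From day 1 to day 5 it was lower by 0.53 ± 0.07 (1.44-fold). Day 5 minus day 3 was -0.07 ± 0.07, and the recovered share of its fall of 0.23 was -31.1% ± 40.9, an error larger than the value. With each array centred on its median this difference was 0.01 and the share 3.5%, so its sign is not settled. A rebound of Klf2 was not seen on these arrays.

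**Figure D2:**
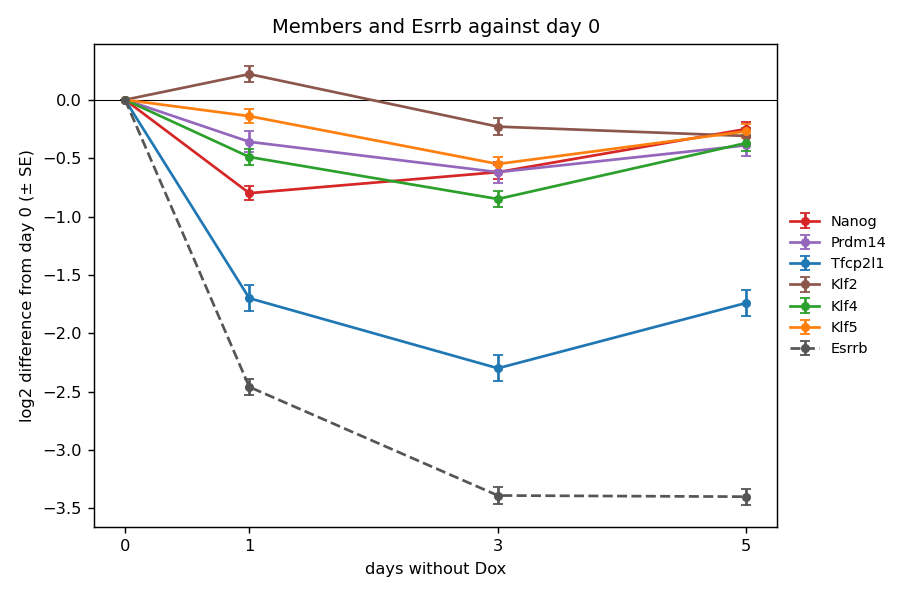
Log2 difference from day 0 (± SE of the fit) of the 6 genes and of Esrrb (dashed) against days without Dox, with the 3 arrays of a day averaged. Tfcp2l1 reaches -2.30 at day 3, Esrrb stays at -3.40 at day 5, the other 5 genes lie between 0.22 and -0.85, and at day 5 these 5 have come together between -0.25 and -0.39.

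Set side by side, the 6 genes were spread from 0.22 (Klf2) to -1.70 (Tfcp2l1) at day 1. At day 5, Nanog, Klf5, Klf2, Klf4 and Prdm14 were lower than at day 0 by 0.25, 0.27, 0.31, 0.37 and 0.39, differences within about 1 to 2 standard errors of each other, and Tfcp2l1 by 1.74 ± 0.11. All day 1 arrays lay below all day 0 arrays for 5 of the 6 genes, where 12.6% of all genes did so, and above them for 1 (Klf2), where 17.7% did. All day 3 arrays lay below day 0 for 6 of 6 (19.4% of all genes), and all day 5 arrays lay below day 0 for 6 of 6 (22.1%). All day 5 arrays were above all day 3 arrays for 5 of 6 (18.4%), and the 2 conditions of a lower day 3 and a higher day 5 were met by 5 of 6, where 5.67% of all genes met them. These counts repeat the values the genes were chosen by. The differences against day 0 share the day 0 arrays, and the fall to day 3 and the rebound from it share the day 3 arrays, so the error of 1 day enters both.

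**Figure D3:**
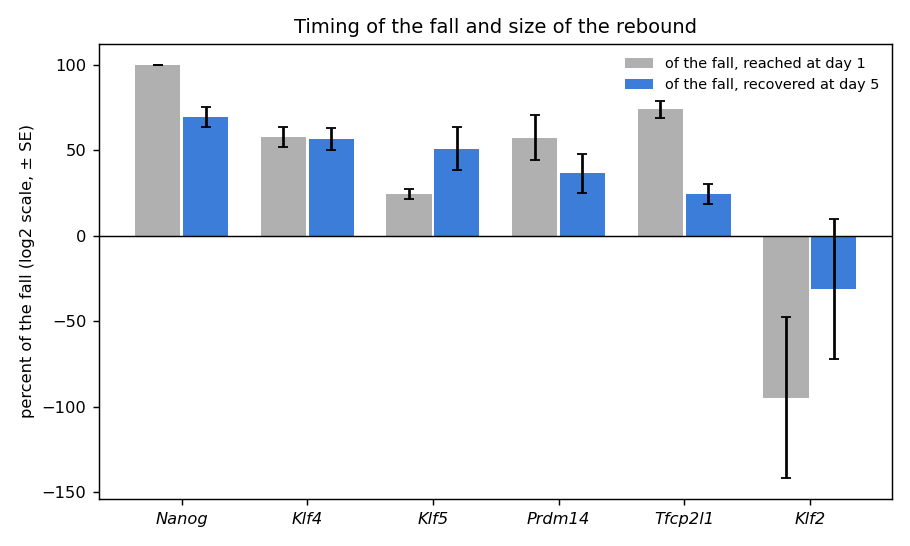
For each gene, the percent of its fall on the log2 scale that was reached at day 1 (grey) and recovered by day 5 (blue), ± SE, where the fall is day 0 minus the lower of the day 1 and day 3 means. In grey Nanog is at its whole fall because day 1 is its low point, the recovered share runs from 69.4 in Nanog to 24.4 in Tfcp2l1, and Klf2 is negative in both because it was higher at day 1 and not recovered at day 5.

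The share recovered decreased in the order Nanog (69.4%), Klf4 (56.5%), Klf5 (51.0%), Prdm14 (36.5%) and Tfcp2l1 (24.4%). Neighbours in this order lie within about 1 to 2 of their standard errors, so the order of Nanog, Klf4 and Klf5, or of Prdm14 and Tfcp2l1, is not fixed by 3 arrays a day. Among the 744 genes whose day 3 arrays all lay below day 0 with a mean fall of at least 0.5, the median share recovered from day 3 to day 5 was 0.7% (quartiles -22.0% and 34.5%). Counted from day 3 in the same way, Nanog stood at 60.3%, above 84.7% of those genes, Klf4 above 84.3%, Klf5 above 82.3%, Prdm14 above 76.2% and Tfcp2l1 above 69.4%. Klf2 is not among the 744. These ranks, like the counts above, repeat the values the genes were chosen by.

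**Figure D4:**
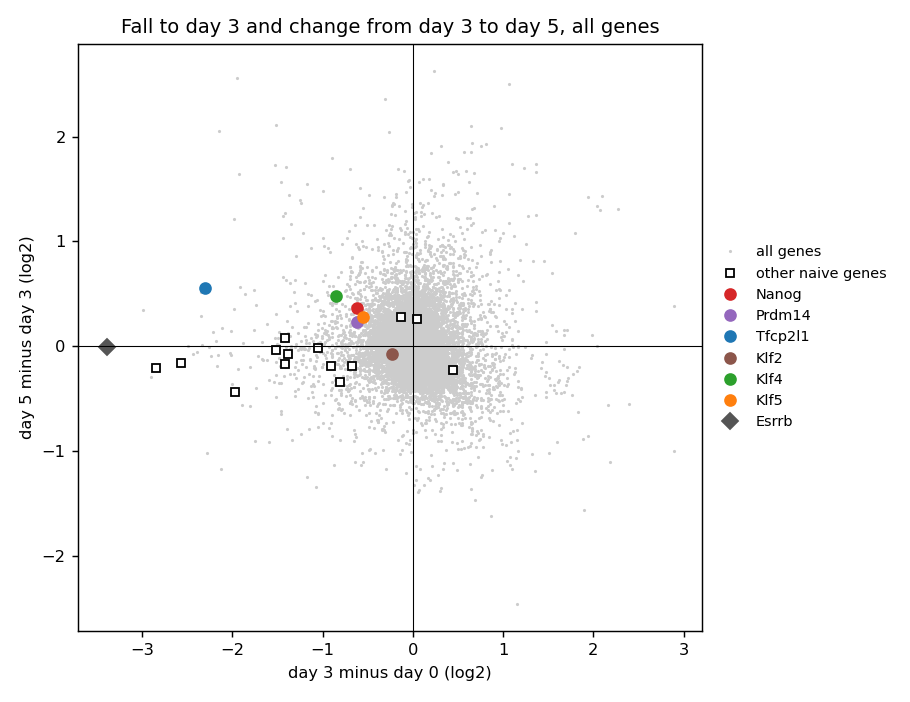
Day 3 minus day 0 (x axis, log2) against day 5 minus day 3 (y axis, log2) for all 19938 genes (grey), with the 6 genes coloured, Esrrb as a diamond and the other naive genes as open squares. Nanog, Klf4, Klf5, Tfcp2l1 and Prdm14 lie in the upper left between 0.23 and 0.56 on the y axis, while the naive genes with the deepest falls, Nr0b1 and Jam2, lie at -0.21 and -0.16.

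Other genes of the naive state were compared through a list of 15, of which 14 were measured. The list was chosen with earlier results of these data known, and the 6 genes were set apart by their rebound. A lack of rebound among the other naive genes is therefore partly built in. Calls on genes outside the 6 are by limma with Benjamini-Hochberg adjustment over all genes. Its calls made up 10.9% of genes at day 1, 26.6% at day 3 and 35.0% at day 5 against day 0, and 25.3% at day 5 against day 3. Of the 14 naive genes, 11 fell and 1 rose by day 3, and 0 were called higher and 4 lower at day 5 than at day 3, where 13.0% of all genes rose and 12.2% fell. The median of the list from day 3 to day 5 was -0.17, against -0.02 over all genes. Nr0b1, which encodes the nuclear receptor partner Dax1, went from a log2 mean of 12.65 at day 0 to 9.81 at day 3 and 9.60 at day 5 (-3.05 at day 5, limma adjusted p = 1.9e-09). Jam2, a junction protein gene, fell by 2.73 by day 5 (limma adjusted p = 2.6e-09), and the T-box gene Tbx3 fell by 1.56 (limma adjusted p = 7.0e-09). Tcl1, an Akt co-activator gene, fell by 2.41 (limma adjusted p = 5.2e-09). Tcl1 fell further from day 3 to day 5, by 0.44 (limma adjusted p = 0.0097). The naive genes called higher at day 5 were Dppa3 (0.31, limma adjusted p = 0.016) and Tfe3 (0.21, limma adjusted p = 0.038), and both lost the call under several alternatives. Of all genes, 3.03% (605) were called lower at day 3 than at day 0 and then higher at day 5 than at day 3, and 0 of the 14 other naive genes were among those called higher from day 3 to day 5.

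Pou5f1 and Sox2, which encode the factors of the composite seen in the Nanog promoter, did not share the rebound of Nanog. Pou5f1 was at 12.44 at days 0 and 1, 12.31 at day 3 and 11.94 at day 5, and it fell by 0.49 by day 5 (limma adjusted p = 9.6e-05). Sox2 fell by 0.66 by day 5 (limma adjusted p = 2.0e-06). Between day 3 and day 5, while Nanog was higher by 0.37, Pou5f1 fell by 0.37 (limma adjusted p = 0.0016) and Sox2 by 0.26 (limma adjusted p = 0.0057). Of the 7 measured core pluripotency genes, 4 fell at day 5 (Pou5f1, Sox2, Utf1 and Tdgf1) and 1 rose (Lin28a, an RNA-binding protein gene, by 0.40, limma adjusted p = 1.2e-04). Of all genes, 35.0% were called at day 5.

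Relatives of the 6 genes by family were read at day 5, where 35.0% of all genes were called. Of 14 other Klf genes, 2 rose and 3 fell at day 5. Klf6 rose by 0.65 (limma adjusted p = 9.2e-07) and Klf7 by 0.74 (limma adjusted p = 1.7e-06). Klf9 fell by 0.65 (limma adjusted p = 9.0e-06), Klf15 by 0.55 (limma adjusted p = 4.0e-05) and Klf12 by 0.51 (limma adjusted p = 1.8e-04). Klf10 was called at day 3 (0.32) and not at day 5 (0.05). Klf3 had the shape of Klf4 and Klf5, since it fell by 0.49 at day 3 (limma adjusted p = 1.5e-04) and rose by 0.32 from day 3 to day 5 (limma adjusted p = 0.0043). Of the 11 measured Prdm genes other than Prdm14, 2 fell at day 5, Prdm6 by 0.33 (limma adjusted p = 0.0037) and Prdm10 by 0.20 (limma adjusted p = 0.016). Of the 5 relatives of Tfcp2l1, the grainyhead gene Grhl3 fell by 0.82 at day 3 (limma adjusted p = 1.9e-06) and rose by 0.34 by day 5 (limma adjusted p = 0.0027), and Grhl1 fell by 0.23 at day 5 (limma adjusted p = 0.032), while Tfcp2 and Ubp1 had 0.09 and 0.10 without a call.

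The inputs to these factors were read from 3 further lists, and a link between them and the rebound was not tested. Of all genes, 26.6% were called at day 3 and 35.0% at day 5 against day 0. From day 3 to day 5, 13.0% of all genes were called higher and 12.2% lower. Of the 8 genes of Lif and Stat3 input, 3 fell by day 3 (Il6st, Jak1 and Pim3), and 7 rose from day 3 to day 5, with a list median of 0.34 against -0.02 over all genes. Jak1, the kinase of the Lif receptor, fell by 0.30 by day 3 (limma adjusted p = 0.0047) and rose by 0.50 to day 5 (limma adjusted p = 1.3e-04). Jak2, a related kinase, rose by 1.07 from day 3 to day 5 (limma adjusted p = 1.7e-06), and Socs3, a Stat3 target, by 0.21 (limma adjusted p = 0.022). Of 7 measured genes of Wnt and Tcf7l1 input, 3 rose (Gsk3a, Axin2 and Tcf7l2) and 1 fell (Lef1) from day 3 to day 5. Over those days Tcf7l1 (0.15) and Gsk3b (0.16) had no call. Axin2 fell by 0.68 by day 3 (limma adjusted p = 0.011) and rose by 0.71 to day 5 (limma adjusted p = 0.0093). Against day 0, 4 of the 7 rose and 1 fell at day 5. Tcf7l1 itself rose by 0.54 by day 5 (limma adjusted p = 3.3e-05), Tcf7l2 by 1.59 (limma adjusted p = 5.2e-09) and Gsk3b, a kinase that limits Wnt signalling, by 0.34 (limma adjusted p = 0.0013), while Lef1 fell by 0.44 (limma adjusted p = 7.6e-04). Of 11 measured genes of Fgf and Erk input, 7 fell and 2 rose at day 5, while Dusp6 (0.08) and Grb2 (0.01) had no call. Spry4 and Etv4, which report Erk activity, fell by 1.21 (limma adjusted p = 1.8e-07) and 1.17 (limma adjusted p = 5.7e-08), and Fgf5 rose by 1.87 (limma adjusted p = 6.5e-07).

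**Figure D5:**
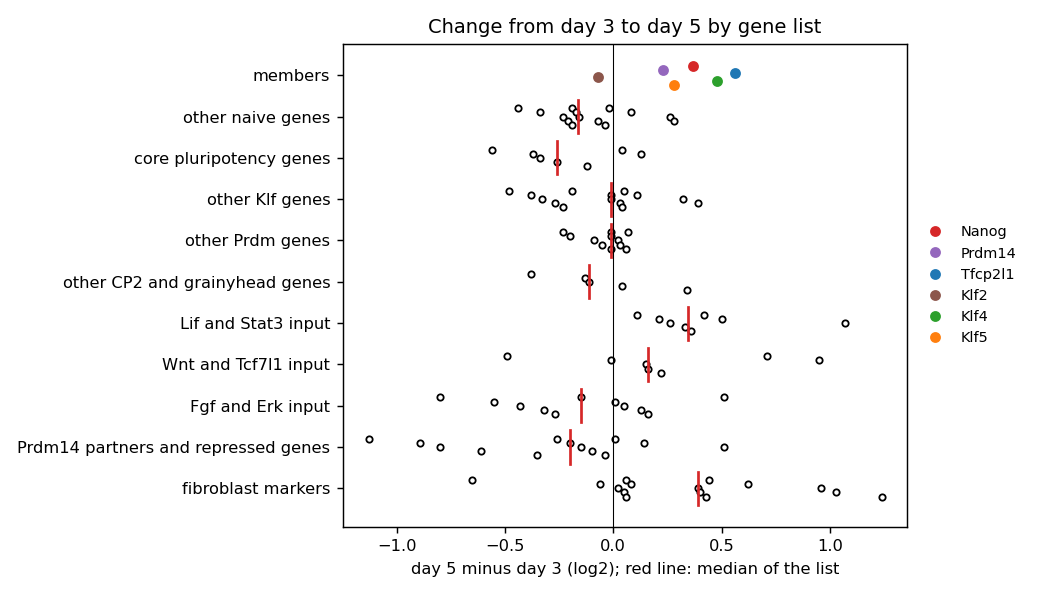
Day 5 minus day 3 (log2, x axis) for each of the 6 genes (coloured, top row) and for every measured gene of 10 lists (open circles, with the list median as a red line). The median is -0.17 in the other naive genes, 0.34 in Lif and Stat3 input and 0.39 in the fibroblast markers. The trophectoderm (median 0.81) and primitive endoderm (median 0.59) lists are not drawn.

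Prdm14 acts with the corepressor Cbfa2t2 and with Polycomb proteins. Its list of 13 partners and repressed genes had 10 that fell and 1 that rose at day 5, where 35.0% of all genes were called. The repressed genes went in different directions. Fgfr1 rose by 0.86 (limma adjusted p = 8.3e-06), Fgfr2 fell by 1.47 (limma adjusted p = 3.5e-09), and the DNA methyltransferase genes Dnmt3a and Dnmt3l fell by 1.70 (limma adjusted p = 6.2e-09) and 1.05 (limma adjusted p = 7.0e-08). The demethylase gene Tet2 fell by 1.67 (limma adjusted p = 4.8e-08). At day 3, the low point of Prdm14, Dnmt3b was higher than at day 0 by 0.76 (limma adjusted p = 2.4e-06), Dnmt3a fell by 0.57 (limma adjusted p = 1.2e-04), Fgfr2 fell by 1.48 (limma adjusted p = 5.2e-09) and Dnmt3l stood at -0.16 without a call. Dnmt3b was back at -0.04 at day 5.

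The genes whose signal followed each of the 6 most closely over the 12 arrays are given by Pearson's r among 850 genes with day means that span at least 1 log2 unit, as a description, since all points share 4 days and the same arrays. Nanog was most like St3gal5 (0.93), a ganglioside synthase gene, followed by Vnn1 and Nrep (both 0.91). St3gal5 was at -1.36 for day 1 minus day 0 and 0.60 for day 5 minus day 3. Klf4 was most like Mgll (0.95), Ncam1 (0.94) and Calcoco2 (0.92), and Prdm14 was most like Stambpl1 (0.92), Calcoco2 (0.90) and Raet1d (0.89). Klf5 was most like the surface protein genes Alcam (0.97) and Cd44 (0.96) and the collagen gene Col12a1 (0.96). Tfcp2l1 was most like Pde8a, Ntn1 and Flvcr2 (0.98 each), with Pde8a at -2.35 for day 3 minus day 0 and 0.29 for day 5 minus day 3. Klf2 was most like Twf2, Tex19.1 (0.96 each) and Nlrc4 (0.95), which were also higher at day 1, by 0.37, 0.51 and 0.86. Among the 6 genes themselves r ran from 0.92 for Klf4 and Tfcp2l1 to -0.34 for Nanog and Klf2, and apart from the pair of Nanog and Klf5 (0.42) and the pairs with Klf2 (0.58 and below) every pair was at 0.67 or above.

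Markers of other cell types moved over the same days. The mean log2 signal of 15 measured fibroblast markers on an array, each gene counted alike, was 7.93 to 8.0 at day 0 and 7.88 to 7.92 at day 1. It was 7.45 to 7.48 at day 3 and 7.70 to 7.85 at day 5. This mean was thus lowest at day 3 and higher at day 5, as Klf4, Klf5, Tfcp2l1 and Prdm14 were. Of these 15, 10 fell and 1 rose by day 3, and 8 rose and 1 fell from day 3 to day 5. Over all genes, 26.6% were called at day 3 against day 0 and 25.3% at day 5 against day 3. The collagen genes Col1a1 and Col1a2 fell by 0.98 and 1.44 and then rose by 0.96 and 1.24, whereas Prrx1 fell by 1.29 and Col5a2 fell by 1.01 by day 3 with 0.02 and 0.08 from day 3 to day 5. Thy1 ran the opposite way, with 0.37 at day 3 and then -0.65. Lum (4.66 at day 0, 4.63 at day 5) and Twist1 (8.14 and 8.13) had no call. The mean of the 11 trophectoderm markers went from 7.92 to 8.02 at day 0 to 8.85 to 8.96 at day 5, with 5 of 11 higher. These were Gata3 and the keratin genes Krt7, Krt8, Krt18 and Krt19, from 0.74 (Gata3) to 3.03 (Krt19). Cdx2 (-0.02), Elf5 (0.08), Hand1 (0.13), Ascl2 (-0.13), Eomes (0.39) and Tfap2c (0.19) had no call at day 5 against day 0. The mean of the 14 primitive endoderm markers went from at most 10.06 at day 0 to between 10.22 and 10.46 at day 5, with 9 higher and 3 lower. Over all genes, 35.0% were called at day 5 against day 0. From day 3 to day 5, 7 of the 11 trophectoderm markers rose and 0 fell (list median 0.81). Of the 14 primitive endoderm markers, 10 rose and 3 fell (list median 0.59). Over all genes 13.0% rose and 12.2% fell. The median of the fibroblast markers was 0.39. By day 3, Eomes and Tfap2c had fallen by 0.71 and 0.58, while Krt18 and Krt19 rose. Gata6 and Pdgfra had fallen by 0.27 and 0.60, while 4 other primitive endoderm markers rose. The part of other cell types in the rebound of the 6 genes was not tested. The mean of 8 housekeeping genes was 11.23 to 11.32 at day 0 and 11.13 to 11.16 at day 5.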

How the data were processed

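The 12 arrays were Affymetrix Mouse Gene 1.0 ST, hybridized with total RNA of 3 biological replicates at each of days 0, 1, 3 and 5 of Dox removal. The authors normalized the arrays by RMA in Affymetrix Expression Console (version not given in the sources used here) and deposited the log2 values of each probe set. Medians of the arrays were 6.92 to 7.05. The platform annotation gave 1 symbol to 21789 of the 35557 probe sets, several to 1621 and none to 12147, and single-symbol probe sets were averaged per gene (19938 genes, 999 with several). Precision is limited by the number of arrays, which have no depth to count.

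All genes were fitted together (limma 3.58.1, R 4.3.3, functions lmFit and eBayes) with 1 coefficient for each day, leaving 8 residual degrees of freedom to which the prior added 4.63. P-values are two-sided with Benjamini-Hochberg adjustment across the 19938 genes, and 0.05 was the threshold. Calls were used for genes other than the 6 and as the background, and the fit was tested on simulated data. The 6 genes and the 14 lists (157 genes, 145 of them measured) were chosen with earlier results of these data known. The fall is day 0 minus the lower of the day 1 and day 3 means, and the recovered share is day 5 minus that mean over the fall, with a standard error from the spread of the arrays. Genes named are the 6, Esrrb, Pou5f1 and Sox2, the 3 genes most like each of the 6 (clone and model symbols left out), from each list up to 4 genes by adjusted p at day 5 and those called in the opposite direction, and other Klf genes called at any day. Sall4, Zfp42, Dnmt3b, Il6st, Pim3, Axin2, Gsk3a, Dusp6, Grb2 and the fibroblast, trophectoderm and primitive endoderm markers were named after their values were seen. The alternatives were a replicate block, the brightest probe set, arrays centred on their median, quantile normalization, a filter on dim genes (11661 kept), a trended and robust variance, array weights, every probe set, the methods' t-test, the linear scale for shares and each array left out in turn. Replicate numbers did not pair the samples (18 pairs with the same number, r of deviations -0.17 to 0.07, 0 over 0.1). Promoter sequences are from RefSeq, GRCm38.p6. Other measurements of the study were not analysed here. Summaries and plots used Python 3.11.15 with pandas 2.3.3, numpy 2.4.6 and matplotlib 3.10.9.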

Additional observations from a re-analysis of the deposited data

Results flagged for a closer look

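Several genes lay on opposite sides of day 0 at different days on every array of the days compared. Over all genes, the day 1 arrays all lay below day 0 in 12.6% and all above it in 17.7%. The share of all genes on opposite sides at different days was not counted. Among the 6 genes this was Klf2, which differed from day 0 by 0.22 at day 1, then by -0.23 (day 3) and -0.31 (day 5) on the log2 scale. For Klf2 the difference between the days was not tested. Klf9 was at 0.09 at day 1, below day 0 by day 3 (-0.16) and lower still by day 5 (-0.65). Dnmt3l went from 0.57 at day 1 through -0.16 to -1.05 at day 5, and Lef1 from 0.90 at day 1 to -0.44 at day 5. Grhl1 went from 0.14 at day 3 to -0.23 at day 5. Day 5 against day 3 was called for Grhl1 (-0.38, limma adjusted p = 0.003) and Klf9 (-0.48, limma adjusted p = 2.4e-04). It was also called for Dnmt3l (-0.89, limma adjusted p = 1.2e-06) and Lef1 (-0.49, limma adjusted p = 6.1e-04). The kinases of Lif and Stat3 input ran the other way, Jak1 from -0.26 (day 1) and -0.30 (day 3) to 0.20 at day 5, and Jak2 from -0.26 at day 1 to 1.02 at day 5. Both were called at day 5 against day 3 (Jak1 limma adjusted p = 1.3e-04, Jak2 limma adjusted p = 1.7e-06). Against day 0, limma called neither Klf9 at days 1 and 3 nor Grhl1 at day 3. Dnmt3l at day 3 and Jak2 at day 1 were not called either. On those days the side of day 0 rests on the order of the arrays alone.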

How the results depend on the processing

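The shares recovered by Nanog, Klf4, Klf5 and Prdm14 moved by less than 1 SD, taken from the spread between arrays, under every alternative run. On the linear scale Nanog (63.4%) and Klf4 (49.2%) moved by more than the standard error. The share of Tfcp2l1 was 12.1% on the linear scale, and the share of Klf2 turned to 3.5% with arrays centred on their median, where its day 5 minus day 3 was 0.01. The cause was not tested. Without 1 array in turn the shares ran from 66.5 to 74.5% for Nanog, 52.0 to 59.1% for Klf4, 40.1 to 61.9% for Klf5, 31.4 to 44.0% for Prdm14, 18.8 to 27.3% for Tfcp2l1 and -85.9 to -7.8% for Klf2.

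Genes called at day 1 numbered 2180, and 1020 by the methods' t-test (4446 at an unadjusted p under the threshold, 4772 in limma), and 1236 to 2355 without 1 array. Arrays that lowered it by over 1.5 times were day 0 replicate 1 (1407), day 1 replicate 1 (1357), day 1 replicate 2 (1425) and day 1 replicate 3 (1236). Genes lower at day 1 and then higher at day 5 numbered 248, and 146 with arrays centred on their median and 124 to 252 without 1 array, with 152 and 162 without day 0 replicates 1 and 2 and 137, 164 and 124 without day 1 replicates 1, 2 and 3. The replicate block gave 1842 genes at day 1 and 205 of the latter, and it changed the call of 1 gene named, Tfe3 (adjusted p = 0.065 in limma). Calls of Dppa3, Grhl1, Jak1, Prdm10, Tfe3, Sdha and Gusb at day 5 were lost under at least 1 alternative.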
